A study of Mus musculus with 2 samples.

Results

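The epidermal growth factor (EGF) receptor, its relatives and its ligands were read in injured kidneys of mice that lack estrogen sulfotransferase (EST) and of wild-type (WT) mice. The members are 6 ligands (Egf, Hbegf, Areg, Ereg, Tgfa and Btc), 3 receptors (Egfr, Erbb2 and Erbb3) and 1 inhibitor (Errfi1). They were found by gene symbol: every probe set to which the array's annotation gives 1 of these names and no other. This found 21 probe sets for 9 of the 10 genes, out of 45101 probe sets and 18194 named genes in all. No probe set was named Areg in that annotation, so Areg was not analysed here. The list of genes was selected on the intensities of these same 2 arrays, so their differences between the pools are given as a description and support nothing further.

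EST, the product of Sult1e1, is the enzyme that sulfates estrogens, which keeps them from their receptors. Male C57BL/6 mice, 8 weeks old, had both kidneys made ischemic for 30 min, were reperfused, and were killed 24 h later, so both groups carried acute kidney injury (AKI). The EST KO AKI group was 1 pool of 124 mg of kidney from 6 knockout mice, and the WT AKI group was 1 pool of 180 mg of kidney from 3 mice. Each pool was read on 1 Affymetrix mouse array, so the spread between mice is unknown, no test between the genotypes is possible, and no p-value is given. The labels do not say which part of Sult1e1 was disrupted, nor whether the mice that were pooled were littermates. No uninjured kidney was analysed here.

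Signalling through this family starts when a ligand, made as a membrane protein and often cut free by a protease, binds a receptor and brings a pair of receptors together. The paired receptors phosphorylate each other and drive the RAS and ERK kinases, the PI3 kinase pathway and STAT factors, which favour survival and division. In the kidney, EGF itself is made mainly by the thick ascending limb and the distal convoluted tubule and leaves with the urine, whereas the receptor is found along much of the tubule. Activation of the receptor is known to aid the regrowth of the tubule after acute injury, and when it persists, to promote fibrosis. ERRFI1, also called MIG6, binds the activated receptor, blocks its kinase and is itself induced by receptor signalling.

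The members that stood highest in the EST KO pool include Egf and Errfi1, and the stretches upstream of their start sites are shown here because these 2 were both over 2-fold apart and had entries in the sequence table used. Areg is shown with them because its window shares motifs with that of Errfi1. The sequences are from RefSeq, build GRCm38.p6, and run from 250 bases before to 50 bases after an annotated start. That table held 9 windows for 7 members (2 each for Egf and Errfi1); Hbegf, Ereg and Erbb3 were not among them. Letters are lower case, with capitals for matches to a cyclic AMP response element (TGACGTCA) or a TATA box (TATAAA), searched on both strands. The Egf window is chr3:129755273-129755572 on the minus strand, that of Areg is chr5:91139349-91139648 on the plus strand, and that of Errfi1, the downstream one of its 2 windows, is chr4:150854820-150855119 on the plus strand.
Egf: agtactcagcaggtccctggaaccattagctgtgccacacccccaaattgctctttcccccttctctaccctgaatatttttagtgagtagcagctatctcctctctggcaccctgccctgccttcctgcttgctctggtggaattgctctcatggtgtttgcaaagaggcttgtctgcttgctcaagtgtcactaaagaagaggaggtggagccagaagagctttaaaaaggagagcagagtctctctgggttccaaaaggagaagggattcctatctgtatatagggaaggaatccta
Areg: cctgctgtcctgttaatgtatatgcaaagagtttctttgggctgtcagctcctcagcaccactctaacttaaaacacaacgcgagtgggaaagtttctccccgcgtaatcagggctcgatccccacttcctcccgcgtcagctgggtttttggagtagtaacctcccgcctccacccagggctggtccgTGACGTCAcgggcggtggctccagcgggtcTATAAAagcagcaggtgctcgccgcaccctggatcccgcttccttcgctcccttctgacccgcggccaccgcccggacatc
Errfi1: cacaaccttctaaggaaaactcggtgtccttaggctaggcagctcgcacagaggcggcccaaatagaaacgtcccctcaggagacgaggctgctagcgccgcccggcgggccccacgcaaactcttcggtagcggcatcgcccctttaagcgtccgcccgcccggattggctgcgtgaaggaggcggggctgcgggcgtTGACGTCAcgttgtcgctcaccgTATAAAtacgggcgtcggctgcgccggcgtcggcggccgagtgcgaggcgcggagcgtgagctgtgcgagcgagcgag

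In the Errfi1 window the TGACGTCA match began 51 bases before the start and the TATAAA match 28 bases before it. In the Areg window they began 61 and 31 bases before the start, and in neither window did the matches overlap. Among all 32851 windows of the table, 1.79% held TGACGTCA and 13.6% held TATAAA, and the other 7 windows of members held neither. None of the 9 windows of members held an AP-1 site (TGANTCA, in 7.81% of all windows) or a clock-type E-box (CACGTG, in 7.15%). These are matches of letters only, and which start site the kidneys used was not measured.

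Values are linear intensities of probe sets, and each array had been scaled to a trimmed mean of 500.0 before deposit. A probe set's intensity depends on its own sequence, so differences were read between the pools and not between probe sets. Levels of different probe sets were used to set background and to pick a gene's brightest probe set. Background was set, per array, at the 95th percentile of 129 probe sets for keratin-associated proteins and the receptors of smell and taste, genes mostly silent in kidney, at 638.3 in the EST KO pool and 676.1 in the WT pool. A value below it was held at it, which turns a fold against such a value into a bound ("at least"), and a gene counts as measured when its brightest probe set lay above background in at least 1 pool. This held for 8 of the 9 members found and for 7480 genes in all. Of those 7480 genes, 3262 were higher and 4084 lower in the EST KO pool, and 134 were neither. Sult1e1 read 17.2 in the EST KO pool and 472.7 in the WT pool, both below background, so it does not check the genotype label.

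Among the ligands, Egf and Hbegf were higher in the EST KO pool, while Tgfa and Btc were 1.06-fold and 1.09-fold higher and Ereg was not above background. Errfi1, the receptor's inhibitor, was also higher in the EST KO pool. Of the 8 measured members, 3 (Egf, Hbegf and Errfi1) passed 2-fold upward, against 3.02% of all measured genes. As processed here, 0 passed 2-fold downward, against 1.4% of all measured genes. The members' median log2 ratio, EST KO over WT, was 0.15, and that of all measured genes was −0.05. Because the members were chosen for these values, nothing is read from the count.

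**Figure D1:**
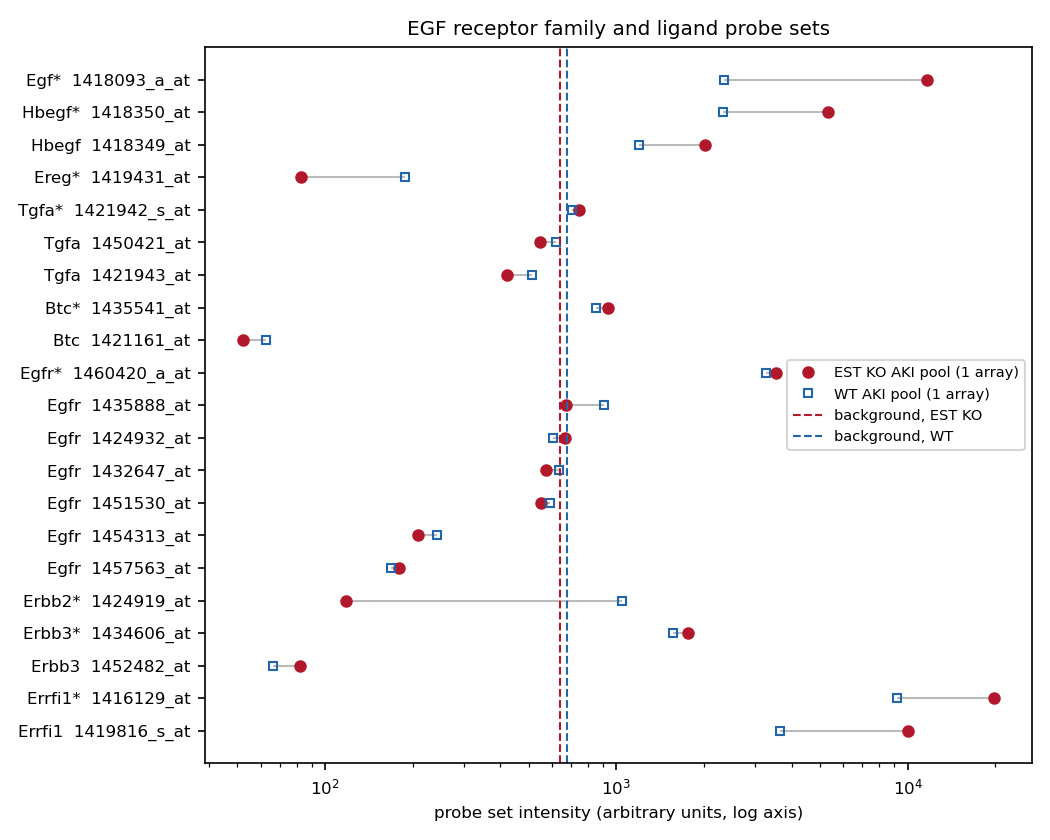
Intensity of each of the 21 probe sets (rows, with the array's probe set name; an asterisk marks the brightest one of a gene) on a log axis in arbitrary units, as filled circles for the EST KO AKI pool and open squares for the WT AKI pool, 1 array each; dashed lines are the background of each array. The Egf, Hbegf and Errfi1 probe sets have the EST KO value to the right of the WT value, Erbb2 has an EST KO value of 118 far left of both background lines, and the brightest Egfr, Tgfa, Btc and Erbb3 probe sets have both values close together.

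Egf, the ligand that gives the family its name, read 11697 in the EST KO pool and 2341 in the WT pool. The EST KO level was thus 4.997-fold that of the WT pool, a log2 ratio of 2.32, and only 12 of the 7480 measured genes had a higher ratio as processed here. Egf was read by 1 probe set, so no other probe set bears on it.

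Hbegf encodes heparin-binding EGF-like growth factor, a ligand that injured tubules are known to induce. At its brighter probe set it read 5348.5 in the EST KO pool and 2326 in the WT pool, 2.30-fold higher in the EST KO pool. At its dimmer one it read 2019 in the EST KO pool and 1194 in the WT pool, 1.69-fold higher. Both probe sets were higher in the EST KO pool, and only the brighter passed 2-fold.

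Tgfa encodes transforming growth factor alpha, a ligand that binds the EGF receptor itself. The brightest of its probe sets has a name that marks it as one that may read transcripts of several genes. It read 744.1 in the EST KO pool and 701.4 in the WT pool. The EST KO value was 1.06-fold higher, and both were just over the background level of their array. The other 2 Tgfa probe sets did not reach that level, with 544.9 and 420.1 in the EST KO pool and 620.9 and 512.0 in the WT pool. Tgfa is thus the measured member nearest to the background limit.

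Btc encodes betacellulin, which can bind both EGFR and ERBB4. It read 933.9 in the EST KO pool and 853.9 in the WT pool at its brighter probe set, 1.09-fold higher in the EST KO pool. Its other probe set, at 52.1 in the EST KO pool and 62.6 in the WT pool, was below background in both.

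Ereg encodes epiregulin, a ligand of EGFR and ERBB4. It read 82.8 in the EST KO pool and 188.4 in the WT pool, both far below background, so it has no order. In the mouse genome Epgn, Ereg, Areg and Btc are neighbouring genes on chromosome 5. Epgn, which encodes epigen, another EGFR ligand, was also below background, at 368.0 in the EST KO pool and 138.6 in the WT pool, so Btc was the only one of the 4 that was measured.

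The receptors split. Egfr, the receptor for all 6 ligands, was close to equal in the pools at its brightest probe set, with 3534 in the EST KO pool and 3271 in the WT pool, 1.08-fold higher in the EST KO pool. A second Egfr probe set above both backgrounds read 669.5 in the EST KO pool and 904.9 in the WT pool, 1.35-fold lower in the EST KO pool. The probe sets of Egfr thus disagreed on direction. Another read 666.8 in the EST KO pool, just above that array's background, and 603.6 in the WT pool, below background, and has no order. The 4 remaining Egfr probe sets lay below background in both pools, between 180.0 and 575.1 in the EST KO pool and between 168.9 and 635.7 in the WT pool.

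Erbb2 encodes the family member that has no ligand of its own and pairs with the others. Its single probe set read 118 in the EST KO pool and 1047 in the WT pool, which makes the EST KO level lower by a factor of at least 1.64. The EST KO value lay below background, so the size of the difference beyond that bound is not known. With no floor the log2 ratio was −3.15, with a pseudocount −1.14 and with the lower background −1.68, each past 2-fold.

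Erbb3 encodes a receptor that binds neuregulins, has very weak kinase activity and recruits PI3 kinase when paired with ERBB2. It read 1761 in the EST KO pool and 1564 in the WT pool, 1.13-fold higher in the EST KO pool. Its other probe set, at 82.3 in the EST KO pool and 66.2 in the WT pool, was below background in both.

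Errfi1 was the only member with both of its probe sets past 2-fold. The brighter read 19863 in the EST KO pool and 9232 in the WT pool, 2.15-fold higher in the EST KO pool. The other read 10000.1 in the EST KO pool and 3634 in the WT pool, 2.75-fold higher, although its name marks it as one that may read transcripts of several genes.

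With 1 array a pool, error can be gauged only from how well a gene's probe sets agree. In 1663 genes that had at least 2 probe sets over both backgrounds, the log2 ratios of the brightest pair differed by a median of 0.21, and in 90% of genes by less than 0.62. The pair differed by 0.44 for Hbegf, 0.55 for Egfr and 0.36 for Errfi1, all inside that range. These differences were still larger than those of 78.2%, 86.2% and 69.5% of the 1663 genes, in that order. Of 55 such genes whose brightest probe set was at least 2-fold higher, 29 had a second one that was also at least 2-fold higher and 51 a second one in the same direction. This error says nothing of how mice differ.

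Ordered by log2 ratio, the measured members ran Egf (2.32), Hbegf (1.20), Errfi1 (1.11), Erbb3 (0.17), Btc (0.13), Egfr (0.11), Tgfa (0.09) and Erbb2 (at most −0.71). The gaps from Egf to Hbegf (1.12), from Errfi1 to Erbb3 (0.93) and from Tgfa to the bound of Erbb2 (0.80) were wider than the 0.62 that holds for 90% of probe set pairs. Hbegf and Errfi1, 0.10 apart, did not differ beyond that spread, nor did Erbb3, Btc, Egfr and Tgfa among themselves. This spread is that between probe sets alone, and the order describes genes that were selected on these ratios.

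**Figure D2:**
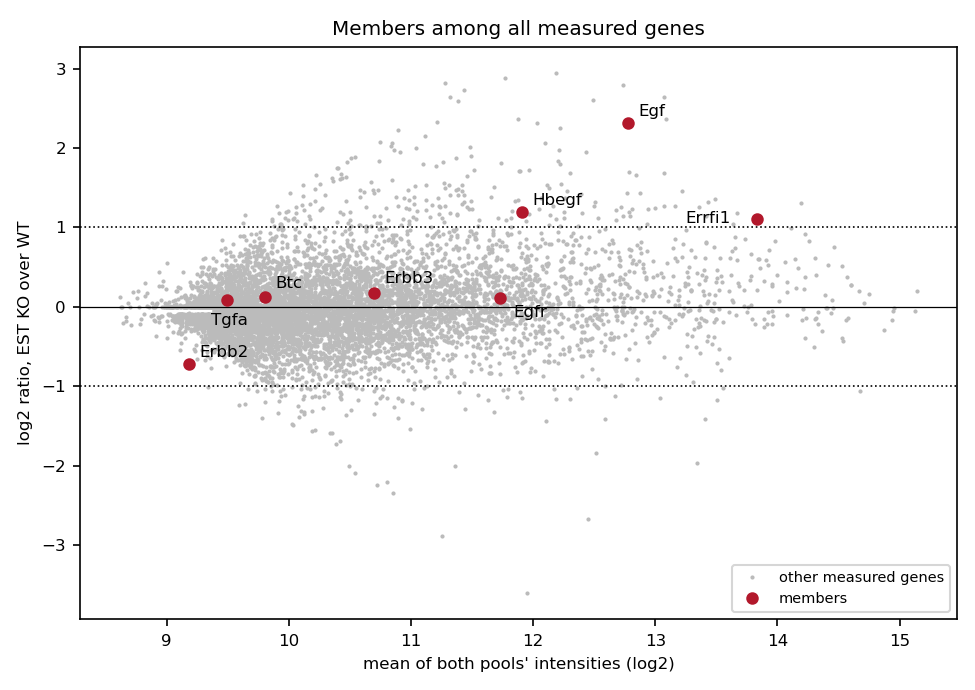
Log2 ratio, EST KO over WT (y axis), against the log2 of the mean intensity of both pools (x axis) for each measured gene, with the 8 measured members as large labelled circles and the other genes as small grey points; dotted lines mark 2-fold. Egf at 2.32 is among the highest points, Hbegf at 1.20 and Errfi1 at 1.11 lie just above the upper dotted line, and Erbb2 is drawn at its bound of −0.71.

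Genes with the ratios closest to those of the 3 higher members were found among genes above background in both pools, over the 2 arrays alone. For Egf they were Cyp4a12a, an androgen-induced fatty acid hydroxylase (4.97-fold higher in the EST KO pool), Nat8f1 (5.03-fold) and Slc13a1, a sulfate transporter (5.15-fold), within 0.04 of its log2 ratio. For Hbegf they were 4931406C07Rik and Glb1, the lysosomal beta-galactosidase (2.30-fold each), and Kcnj15, a potassium channel (2.30-fold), and for Errfi1 they were Plscr2, Tinag and Cxcl1, a neutrophil chemoattractant (2.15-fold each). The nearness rests on 1 value per pool and is a description only.

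Egf was set beside markers of the segments that make it, since fewer cells of a type and less RNA per cell cannot be told apart in pooled tissue. Of 7 measured thick ascending limb markers, 2 were higher and 5 lower in the EST KO pool (median log2 ratio −0.17). Among the lower ones, Kcnj1 and Ptger3 are bounds, below background in the EST KO pool (399.6 and 369.6) and just above it in the WT pool (711.4 and 728.9). Cldn16 and Cldn19 were below background in both pools. The median of the measured markers depended on the treatment of dim values and on the scaling. It was −0.68 with no floor, −0.50 with the 75th percentile background, −0.37 with a pseudocount and −0.06 with both arrays scaled to 1 median. Slc12a1, the salt transporter NKCC2, read 6776 in the EST KO pool and 2965 in the WT pool, 2.28-fold higher in the EST KO pool. Umod, uromodulin, read 22735 in the EST KO pool and 25568 in the WT pool, 0.889 of the WT level in the EST KO pool, and its other measured probe set went the opposite way. The transcription factor genes Foxq1 and Tfap2b had log2 ratios of −0.75 and −0.68, and Cldn10, a claudin of the paracellular sodium path, 0.54.

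Of 6 measured distal convoluted tubule markers, 4 were higher and 2 lower (median 0.27), none by 2-fold. Slc12a3, the thiazide-sensitive salt transporter, read 3605 in the EST KO pool and 2650.1 in the WT pool, 1.36-fold higher in the EST KO pool. Pvalb, parvalbumin, read 1027 in the EST KO pool and 230.4 in the WT pool, the WT value below background, and was at least 1.52-fold higher. Fxyd2, a sodium pump subunit, and Calb1, calbindin, were 1.21-fold and 1.20-fold higher. Trpm6, the magnesium channel that EGF is known to stimulate, read 1108 in the EST KO pool and 1209 in the WT pool, a log2 ratio of −0.13. The log2 ratio of Egf lay above those of the 12 other measured markers of both segments; Pvalb has a lower bound alone and was not ranked. The part that cell content plays in the Egf value was not tested.

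**Figure D3:**
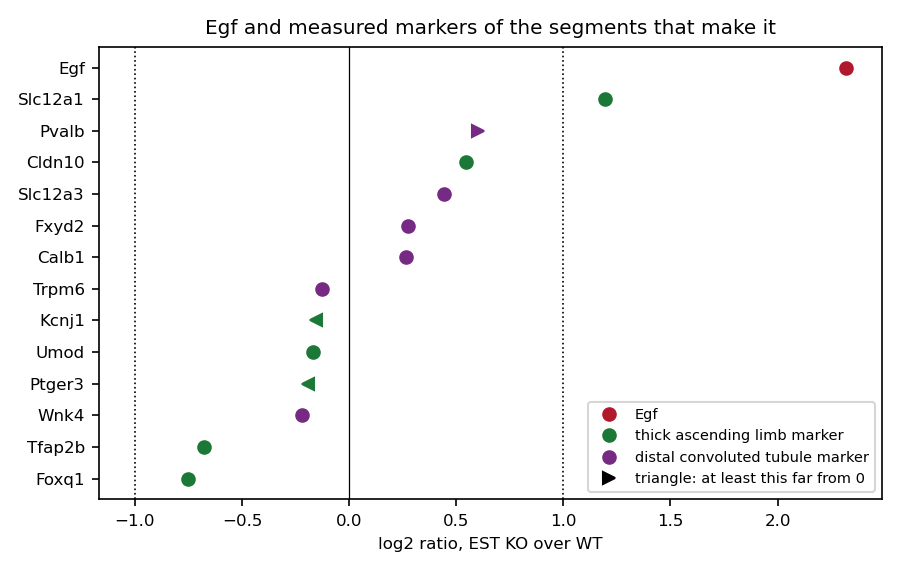
Log2 ratio, EST KO over WT (x axis), of Egf (top row) and of each of the 13 measured markers of the thick ascending limb and the distal convoluted tubule (rows, coloured by segment); triangles are bounds and dotted lines mark 2-fold. Egf at 2.32 is followed by Slc12a1 at 1.19, and the other 12 markers are drawn between −0.75 and 0.60.

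Markers of other cell types also differed between the pools. Of 12 measured proximal tubule markers, 11 were higher in the EST KO pool, with a median of 0.87, and 5 passed 2-fold. These were led by the scaffold gene Pdzk1 (log2 2.95), the transporter genes Slc13a3 (2.73) and Slc22a6 (2.61), and Cubn, the endocytic receptor cubilin (1.48). The other measured probe set of Slc22a6 was at 0.88, under 2-fold. Tubular injury genes were lower for 11 of 12, with a median of −0.79, including the keratin Krt20 (−1.41), Lcn2, which encodes NGAL (−1.06), Vim (−1.04) and Timp1 (−1.03). All 8 measured endothelial markers were lower (median −0.59), led by Nos3 (at most −0.95), Eng (−0.75), Egfl7 (−0.66) and Plvap (−0.62). The other measured probe sets of Eng and Egfl7 were nearer to 0, at −0.04 and −0.11. All 7 measured macrophage and neutrophil markers were lower (median −0.51), led by S100a8 (−1.69), Cd14 (−1.08), Tyrobp (−0.91) and S100a9 (−0.51). Of 8 measured collecting duct markers, 3 were higher and 4 lower (median −0.11), with Aqp2 at −0.65, Aqp4 at most −0.65, Fxyd4 at −0.44 and Hsd11b2 at 0.29. Over the 8 alternative settings the medians ran from −0.59 to −0.38 for endothelium, from −0.51 to −0.32 for macrophages and neutrophils and from −0.27 to −0.005 for the collecting duct, without a change of sign. Below background in both pools were Tek and Tie1 among endothelial markers and Adgre1, Itgam, Csf3r and Fcer1g among myeloid ones. The part of any of these shifts in the values of Egf, Hbegf, Errfi1 or Erbb2 was not tested.

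The labels give kidney as the tissue in 3 fields, and 1 sentence of them speaks of liver for the EST KO pool. Of 12 hepatocyte markers on the array, 4 were measured. These were Ttr (log2 2.80), Cyp2e1 (0.84), Cps1 (0.15) and Apob (at most −0.29), with a median of 0.49 whose sign turned under 1 of 8 alternative settings. Alb, serum albumin, which liver expresses at a very high level, was below background in both pools, at 522.3 in the EST KO pool and 487.9 in the WT pool. Ahsg, Apoa1, Apoa2, Ambp, F2, Hpx and Tat were below background in both pools too. In the EST KO pool the proximal tubule marker Slc34a1 read 28347 and the thick ascending limb marker Umod 22735, both far above background.

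The rest of the pathway was read through whole lists of genes, which were drawn up with earlier results of these data known. In 5 lists of ligands and receptor, proteases, transducers, restrainers and trafficking genes, 56 of 81 genes were measured. Of these, 24 were higher and 32 lower in the EST KO pool, a split close to that of all 7480 measured genes (3262 higher and 4084 lower). At their brightest probe sets, 0 passed 2-fold upward and 2 downward, against 3.02% and 1.4% of all measured genes. Shares of that size leave few to be found among 56 genes. With both arrays scaled to 1 median, 1 gene (Eps8) passed 2-fold upward, and the number past it downward was between 0 and 3 over the 8 alternative settings. The 6 further ligands and receptors of the family (Epgn, Nrg1, Nrg2, Nrg3, Nrg4 and Erbb4) were all below background in both pools, so no neuregulin, the ligand class of ERBB3, was measured.

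Ligands are freed by membrane proteases, and these were mixed. Of 5 measured protease and iRhom genes, 3 were lower and 2 higher (median −0.35). Adam10, a protease that frees EGF and betacellulin, read 1343 in the EST KO pool and 1745 in the WT pool, a log2 ratio of −0.38. Adam12 and Adam9 had log2 ratios of −0.56 and −0.35, and Adam15 0.57. The other measured probe set of Adam12 was at −0.28, and that of Adam15 at 0.0016, close to equal in the pools. Adam17, the main protease for HB-EGF, amphiregulin and TGF-alpha, was below background in both pools, at 408.5 in the EST KO pool and 579.0 in the WT pool.

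Of 18 measured signal transducers, 7 were higher and 11 lower (median −0.17), and both genes past 2-fold were lower. Map2k1, the ERK kinase MEK1, read 1196 in the EST KO pool and 2692 in the WT pool, a log2 ratio of −1.17. Araf, a RAF kinase, had a log2 ratio of −1.36 at its brightest probe set, and one of its others went the opposite way at 0.29. Braf had a log2 ratio of −0.66, also with a probe set opposed. Eps8, an EGF receptor substrate that remodels actin, went the other way at 0.97, with all 3 of its measured probe sets higher and log2 ratios from 0.25 to 1.27, the highest of them past 2-fold.

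Genes that restrain the receptor or ERK, other than Errfi1, went both ways. Of 19 measured, 8 were higher and 11 lower, the median was −0.06 and none reached 2-fold. Socs5, which promotes degradation of the receptor, was lowest at −0.88, and Dusp5, a nuclear ERK phosphatase, highest at 0.58. Spry2, a feedback inhibitor, and Cbl, the ubiquitin ligase that marks the receptor for degradation, had log2 ratios of −0.33 and −0.34. Lrig1, a transmembrane inhibitor of the receptors, was at −0.32, and the phosphatase Dusp6 at 0.25.

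Trafficking genes were split evenly, with 7 of 14 higher and 7 lower (median 0.02). Usp8, which removes ubiquitin from the internalised receptor, was highest at 0.78, and Tsg101, which sorts it for degradation, lowest at −0.67. Ap2a1, an adaptor for clathrin uptake, and Rab11a, which recycles receptors, were at −0.52 and −0.45. The other measured probe set of Rab11a was at −0.10.

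Genes that ERK signalling is known to induce were split as a list. Of 15 measured, 7 were higher and 8 lower, none by 2-fold, with a median of −0.07 that had the opposite sign under 3 of 8 alternative settings. Ccnd1, cyclin D1, was highest at 0.94, with all 3 of its probe sets higher and log2 ratios from 0.19 to 2.48. Egr1, an immediate early factor, was at 0.37, Plaur, the urokinase receptor, at −0.38, and Srf, the serum response factor, at −0.53. The medians of the trafficking list and the restrainer list also had no settled sign, since 2 and 1 of the 8 settings turned them.

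**Figure D4:**
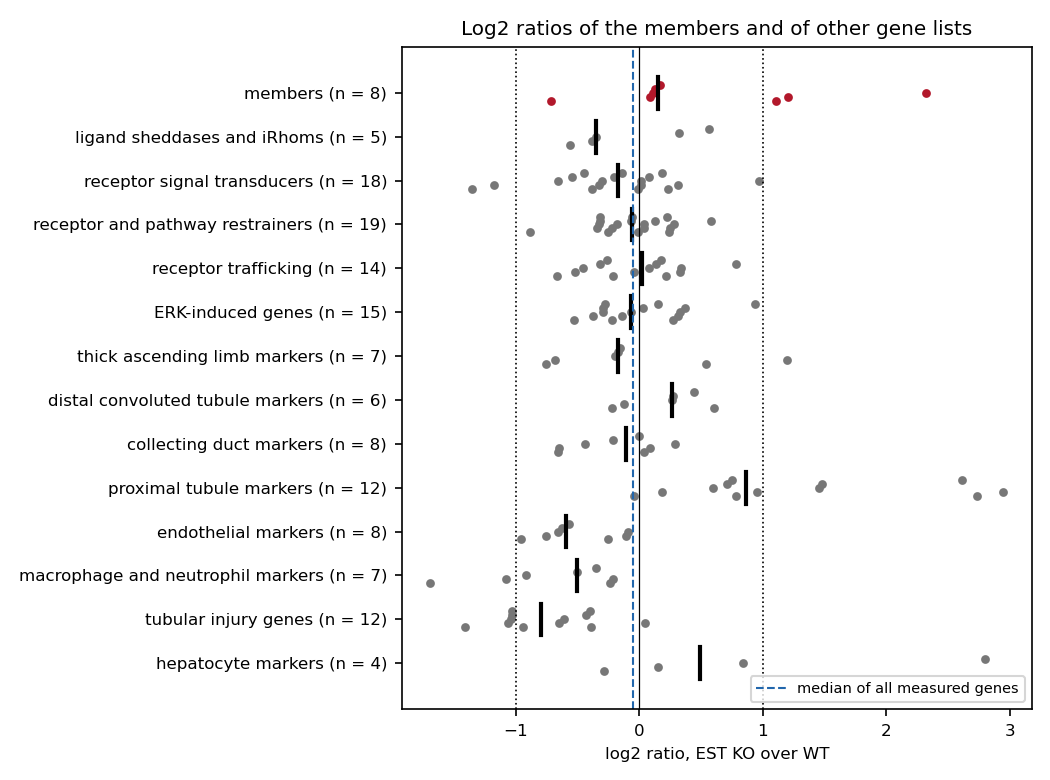
Log2 ratio, EST KO over WT (x axis), of each measured gene of the members (top row) and of 13 other lists (rows, with the number of measured genes); points are genes, spread vertically for legibility, with bounds drawn at the bound, thick bars are list medians, the dashed line is the median of all measured genes and dotted lines mark 2-fold. Egf, Hbegf and Errfi1 are the 3 member points beyond the right dotted line, and no gene of the protease, transducer, restrainer, trafficking or ERK-induced lists lies beyond it at its brightest probe set.

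Egf stayed at least 2-fold higher under all 8 alternative settings, with log2 ratios from 2.04 to 2.43. Several of these settings could not move it, since it has 1 probe set that was bright in both pools. No floor, the 75th percentile background, the mean of probe sets and leaving out probe sets marked for several genes each gave 2.32. Hbegf (0.98 to 1.31) and Errfi1 (0.99 to 1.28) stayed higher under all 8 and each came under 2-fold in 1 of them. For Hbegf this was the mean of its probe sets, and for Errfi1 quantile normalization. No floor, the 75th percentile background and leaving out probe sets marked for several genes left Hbegf at 1.20 and Errfi1 at 1.11. The direction of Egfr turned in 2 of 8 settings (−0.11 to 0.22). Erbb2 was lower under all 8, and past 2-fold in 3 that treat dim values differently.

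**Figure D5:**
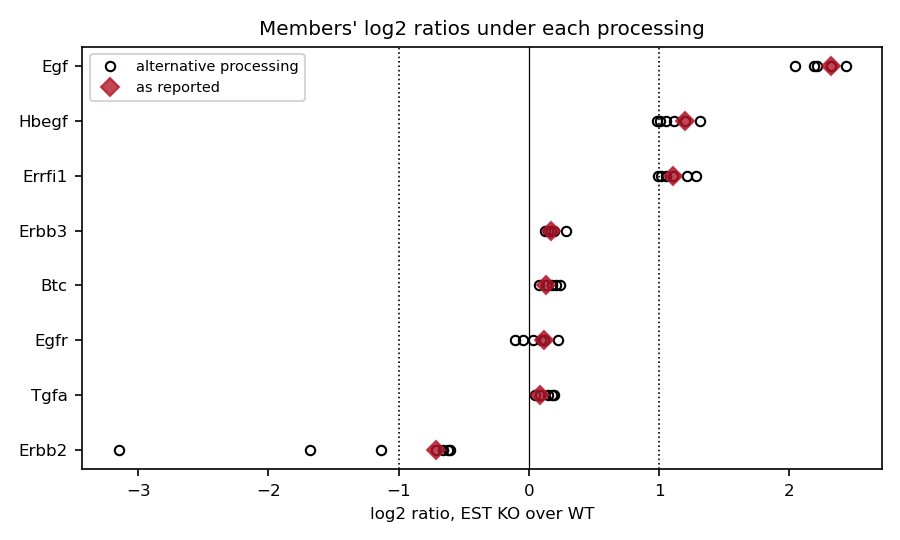
Log2 ratio, EST KO over WT (x axis), of each measured member (rows) as reported (diamonds) and under each alternative processing (open circles); dotted lines mark 2-fold. The circles of Egf lie between 2.04 and 2.43, those of Hbegf and Errfi1 reach just under 1, and those of Erbb2 run from −3.15 to −0.60.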

How the data were processed

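The deposited values are linear intensities, 1 per probe set and array. Per the labels' protocols, RNA was extracted with Trizol and biotinylated cRNA was prepared by the standard Affymetrix protocol; the software that summarised probes is not given in the sources used here. From the values, each array had been scaled to a mean of 500.0 without its lowest and highest 2%, and no further scaling was applied. The array medians were 242.4 in the EST KO pool and 261.8 in the WT pool. As a sign of RNA quality, the 3' over 5' ratio of the actin control was 1.28 in the EST KO pool and 1.35 in the WT pool. That of the Gapdh control was 0.84 in the EST KO pool and 0.88 in the WT pool. The number of arrays limits the precision.

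The annotation gave 34958 probe sets 1 gene symbol, 932 more than 1, and 9211 no symbol. Symbols of 34754 were updated through the Entrez ID to a RefSeq table of assembly GRCm38.p6, also used for neighbouring genes. The probe set that was brightest on average over the arrays stood for its gene. The log2 ratio is EST KO over WT, and a gene with a value above background in the EST KO pool alone that lies under the WT background was given no order and counted as 0 in medians.

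The members, gene lists and tests were chosen with earlier results of these data known. The genes named are all members, in each list the up to 4 measured genes furthest from a log2 ratio of 0, Sult1e1, and for each member past 2-fold the 3 genes nearest in ratio. Also named are the further ligands and receptors of the family, and the endothelial, myeloid, hepatocyte and thick ascending limb markers that were below background in both pools. Umod, Trpm6, Adam17, Alb, Lrig1, Dusp6, Slc34a1, Kcnj1 and Ptger3 were chosen after their values were seen. The scoring was tested on simulated data, with changes larger than 2-fold planted in bright probe sets alone. The simulated noise was smaller than the spread between probe sets here. Bounds and changes near 2-fold were thus not tested. Python 3.11.15, numpy 2.4.6, pandas 2.3.3, statsmodels 0.14.6 and matplotlib 3.10.9 were used.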

Additional observations from a re-analysis of the deposited data

How the results depend on the processing

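The alternatives were scaling both arrays to 1 median, quantile normalization, removal of the intensity trend, no floor for dim values, a pseudocount in place of the floor, background at the 75th percentile, the mean of a gene's probe sets, and leaving out probe sets marked for several genes. The number of members at least 2-fold higher was 3, and 2 under quantile normalization and with the mean of probe sets. The number at least 2-fold lower was 0, and 1 (Erbb2) with no floor, with the pseudocount and with the 75th percentile background. Scaling to 1 median gave a members' median of 0.261 (0.15 as reported) and shifted the median of all genes by 0.107. Over all genes, 226 were higher and 105 lower. The pseudocount gave 133 higher and 39 lower, no floor 331 higher and 197 lower, the 75th percentile background 319 higher and 204 lower, and scaling to 1 median 301 higher and 70 lower. The causes were not tested, beyond the fact that the first 3 treat dim values differently. Without probe sets marked for several genes, Tgfa was not measured. No paired analysis was possible because each group is 1 array. Dim values set the limit for Ereg, Tgfa and Erbb2, whose EST KO values lie near or under background.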
